A study of Mus musculus with 12 samples.

Results

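Mesenchymal and matrix genes were followed through 3 deposited lists from MLE-12, an immortalised epithelial cell line from mouse lung. The set holds 7 genes, Snai1, Pdgfrb, Vim, Col1a1, Col1a2, Col6a1 and Ctgf, of 5714 genes named in any of the 3 lists, and a member's entries were found by its gene name. The genes had been proposed because they appeared in these lists, so their presence there is a description and no finding. In the pull-down sample, the let-7 family microRNA Mirlet7d carried a biotin tag and was transfected at 25 nM, and 48 h later the RNA it held was taken up on streptavidin beads and sequenced. It is set against the input RNA library, for which the labels give the same dose and time. In the ChIRP-seq sample, which the labels also mark as Mirlet7d gain of function, 150 pmol of biotinylated probes against mature Mirlet7d captured chromatin, and the attached DNA was sequenced. Each group is 1 library of 1 cell line, so the values carry counting error alone, with no spread between replicates, and no control capture with another microRNA or probe was analysed here.

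Mesenchymal cells such as fibroblasts make the fibrous matrix of the lung, while epithelial cells normally keep these genes low and can switch them on in epithelial-mesenchymal transition (EMT), a change in which cells lose junctions and gain motility. A microRNA of the let-7 family is held by an Argonaute protein and acts in the cytoplasm by pairing its seed, bases 2 to 8, with messenger RNAs. The tables analysed here concern which RNAs and which sites in chromatin were captured with Mirlet7d. The mature sequence is shown first because every measurement below depends on it, with the seed in capitals (RefSeq, GRCm38.p6, chromosome 13 from 48536078 to 48536099, minus strand).

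mmu-let-7d-5p: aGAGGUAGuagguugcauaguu

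Promoters of the members, from 250 bases before to 50 after the start, were read for the 7 letters complementary to that seed, CTACCTC, on both strands. RefSeq promoters matched for Snai1, Vim, Col1a2 and Col6a1, so 4 of the 7 genes were read. None of the 4 held the 7 letters, which occur in 3.85% of 32851 RefSeq promoters. With the 6 letters complementary to bases 2 to 7, TACCTC, the Col1a2 promoter had a single match on the minus strand, first base at -183. That shorter match is contained in the longer and occurs in 10.0% of all promoters. The promoters of Snai1, Vim and Col1a2 also held CCAAT or its reverse complement ATTGG, the CCAAT box bound by factors such as NF-Y, which 37.4% of all promoters hold and which was searched after the sequences had been seen. Col6a1 held none of these letters. The sequences of the gene with the highest fold, of the gene with a peak beside its start and of the gene with the 6-letter match follow, with CCAAT or ATTGG in capitals and, in Col1a2, also the 6-letter match as GAGGTA.

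Snai1 promoter (GRCm38.p6, plus strand, chr2:167537945-167538244): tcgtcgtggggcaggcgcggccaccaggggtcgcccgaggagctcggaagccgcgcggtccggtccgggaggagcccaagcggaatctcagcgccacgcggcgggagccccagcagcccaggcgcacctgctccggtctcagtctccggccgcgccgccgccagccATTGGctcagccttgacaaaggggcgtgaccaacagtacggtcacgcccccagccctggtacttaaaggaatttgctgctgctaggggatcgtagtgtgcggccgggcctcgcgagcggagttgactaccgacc

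Vim promoter (GRCm38.p6, plus strand, chr2:13574061-13574360): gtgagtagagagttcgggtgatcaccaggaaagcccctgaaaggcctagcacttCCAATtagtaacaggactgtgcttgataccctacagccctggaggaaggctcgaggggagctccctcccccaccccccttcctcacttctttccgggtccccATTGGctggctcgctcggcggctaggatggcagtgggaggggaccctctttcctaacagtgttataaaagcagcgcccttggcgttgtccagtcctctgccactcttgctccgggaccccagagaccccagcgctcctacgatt

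Col1a2 promoter (GRCm38.p6, plus strand, chr6:4505368-4505667): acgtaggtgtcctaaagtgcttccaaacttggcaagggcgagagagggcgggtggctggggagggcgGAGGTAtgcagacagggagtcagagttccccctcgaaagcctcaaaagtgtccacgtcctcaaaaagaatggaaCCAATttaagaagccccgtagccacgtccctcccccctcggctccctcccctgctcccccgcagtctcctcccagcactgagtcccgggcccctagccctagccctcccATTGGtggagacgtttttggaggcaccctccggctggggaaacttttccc

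These letters describe the sequence only, and neither binding to them nor an effect on the values below was tested. The Snai1 window was the richest in G and C, at 70.0% with 34 CpG dinucleotides, against 59.3% and 11 for Vim, 61.0% and 13 for Col1a2 and 57.3% and 3 for Col6a1. Over all promoters the median was 52.7% with 7 CpG dinucleotides.

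Snai1, Pdgfrb and Col1a2 stood in the pull-down list of mRNAs, and Vim, Col1a1, Col6a1 and Ctgf did not. The list holds 1964 transcripts of 1509 genes, all with a pull-down over input ratio of at least 2.5 in RPKM, a read density per kilobase scaled to library size, so a gene outside it has no value here. Of the 26220 genes with a curated RefSeq transcript, 5.74% have an entry in this list, which stands beside the 3 of 7 only as background because the members were picked from it. Snai1 and Pdgfrb lie in the part of the list with ratios of at least 10, which holds 26.7% of the transcripts.

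Snai1 encodes the zinc finger repressor Snail, which switches off E-cadherin in EMT. Its transcript ENSMUST00000052631.7 spans chromosome 2 from 167363696 to 167368314 in mm9. The level was 0.520 RPKM in the pull-down, against 0.009 RPKM in the input. The authors' deposited ratio was 57.8-fold, which ranks 58 in the list. Whole read numbers recovered from the RPKM steps were 101 in the pull-down and 1 in the input. The exact 95% interval of the ratio, from counting error alone, ran from 10.1 to 2287. The interval is wide because the input is 1 read. Its lower end lies above the listing limit of 2.5, but entries were listed by this same ratio, so that adds no support.

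Pdgfrb encodes the platelet-derived growth factor receptor beta, a receptor kinase of pericytes and fibroblasts. Its transcript ENSMUST00000025522.4 covers 39911 bases of chromosome 18, from 61204805 to 61244715 in mm9. The level was 0.048 RPKM in the pull-down, against 0.001 RPKM in the input, and the deposited ratio was 48-fold. An RPKM of 0.001 carries a single digit, so rounding alone allows any ratio from 31.7 to 97.0. The read numbers narrow this, since only 80 or 81 reads in the pull-down and 1 in the input fit the rounded values, which gives a ratio of 45.4 to 46.0. The counting interval still ran from 7.92 to 1839.

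Col1a2 encodes the alpha 2 chain of type I collagen, the main fibre of connective tissue. Its transcript ENSMUST00000031668.8 lies on chromosome 6 from 4455494 to 4491543 in mm9. The level was 0.019 RPKM in the pull-down, against 0.002 RPKM in the input, and the deposited ratio was 9.5-fold. Recovered reads were 28 or 29 in the pull-down and 2 in the input. Taken from reads the ratio was 7.95 to 8.23, with a counting interval from 2.00 to 71.2 whose lower end falls under the listing limit of 2.5.

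The 3 ratios follow the order Snai1, Pdgfrb, Col1a2, but their counting intervals overlap, so that order is not settled by these reads. The pull-down levels keep the same order, but they are reads over spans of 4619 bases for Snai1, 39911 for Pdgfrb and 36050 for Col1a2. The pull-down reads themselves were 101, 80 or 81 and 28 or 29. All 3 genes were close to absent from the input library, where 1, 1 and 2 reads were found over their whole spans, introns included. Such inputs are common in the list. Among the 1424 transcripts whose input could be resolved to 1 read number, 330 (23.2%) had a single input read, with a median ratio of 13.0 and a range from 2.50 to 132. Snai1 exceeded 89.1% of those and Pdgfrb 87.3%. Col1a2 exceeded 53.8% of the 160 transcripts with 2 input reads, whose median was 8.25. Transcripts with 10 or more input reads had a median ratio of 3.69.

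**Figure D1:**
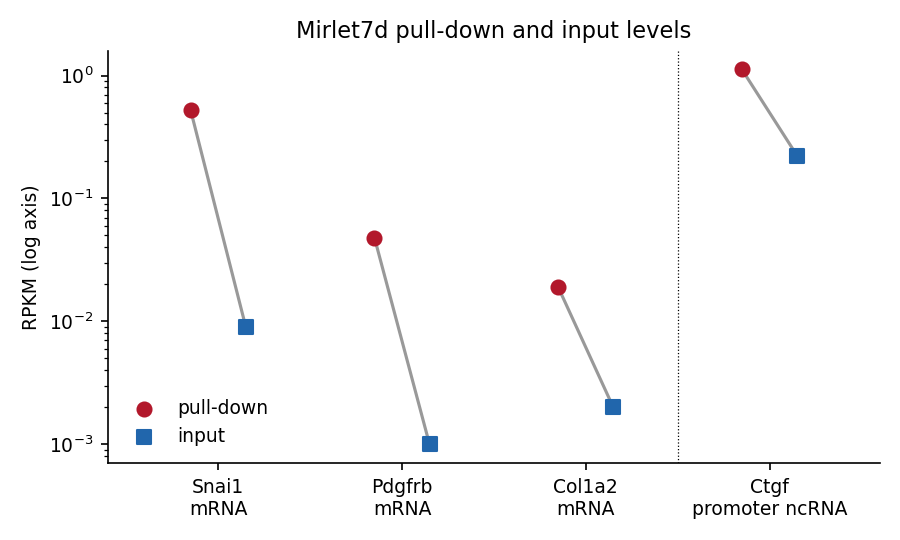
RPKM (log axis) of the 4 listed pull-down entries, with pull-down as circles and input as squares, 1 library each. Snai1 stands at 0.520 RPKM in the pull-down against 0.009 RPKM in the input, and the dotted line separates the mRNA list from the ncRNA list, whose RPKM values have other denominators.

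**Figure D2:**
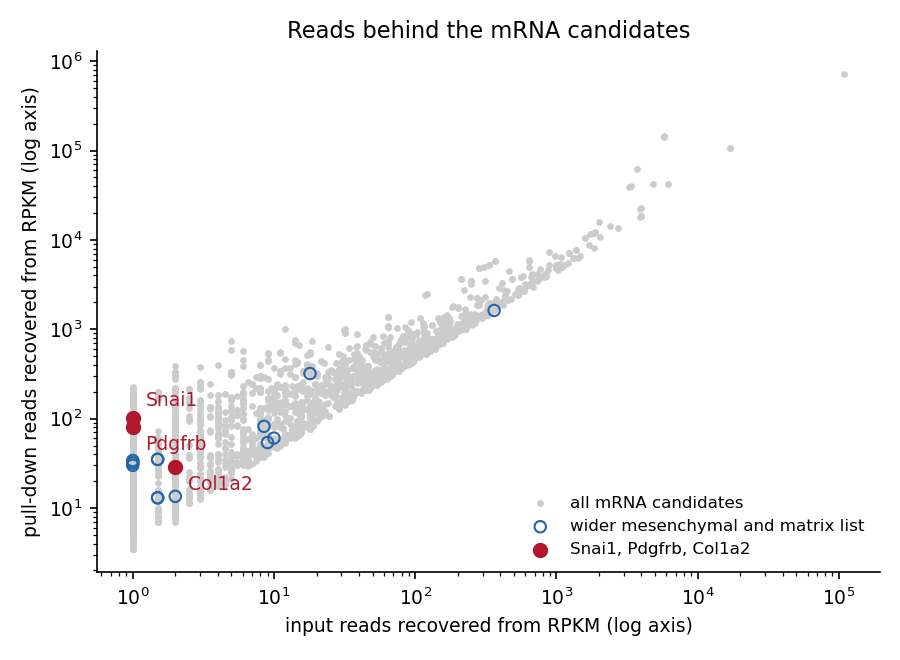
Pull-down reads against input reads recovered from RPKM, both on log axes, for all mRNA candidates, with the midpoint where rounding leaves several read numbers. Snai1, Pdgfrb and Col1a2 sit at the left edge with 1, 1 and 2 input reads, and the empty lower right is where ratios under 2.5 would lie.

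Ctgf was the only member in the list of promoter-associated ncRNAs, which holds 2432 transcripts at 1624 genes. Snai1, Pdgfrb, Vim, Col1a1, Col1a2 and Col6a1 had no entry there. Of the genes with a curated RefSeq transcript, 6.16% have one. Ctgf, now also called Ccn2, encodes connective tissue growth factor, a secreted matrix-associated protein induced by TGF-beta and by YAP. The transcript NONMMUT005044 lies on chromosome 10 from 24309112 to 24315618 in mm9, from 6.14 kb before the Ctgf start to 0.37 kb behind it. Its level was 1.119 RPKM in the pull-down, against 0.223 RPKM in the input, and the deposited ratio was 5.02-fold. Recovered reads were 109 in the pull-down and 14 in the input. Counted as read pairs, the 95% counting interval ran from 2.26 to 13.0. The Ctgf ratio sits in the middle of its list, above 49.2% of the entries, with a list median of 5.12. The strand of the ncRNA is not in the tables, and its last 370 bases lie on Ctgf itself, so reads of the ncRNA and of the Ctgf transcript cannot be told apart there.

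Further pulled-down ncRNAs without a promoter assignment lay around the members. Upstream of Ctgf, 25.7 to 42.1 kb before its start, NONMMUT005038 had 0.203 RPKM in the pull-down against 0.006 in the input, a deposited ratio of 33.8. Within its span NONMMUT005040 had 2.971 RPKM in the pull-down against 0.098 in the input, a ratio of 30.3. These overlapping entries rest on 50 and 47 pull-down reads, and on 1 input read each.

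Col1a1, the gene of the alpha 1 chain of type I collagen, had no entry in the mRNA list, yet a pulled-down ncRNA lies within it. NONMMUT011619, on chromosome 11 from 94812955 to 94814354 in mm9, runs from 15.4 to 16.8 kb behind the Col1a1 start, at the 3′ end of a gene whose RefSeq length is 16.8 kb. Its level was 8.877 RPKM in the pull-down, against 0.444 RPKM in the input, a deposited ratio of 20.0. It had 186 pull-down reads and 6 input reads, with a counting interval from 6.64 to 98.8 in pairs. NONMMUT011618, 9.10 to 9.76 kb behind the start, had 3.639 RPKM in the pull-down against exactly 1 RPKM in the input, a ratio of 3.64. No read number was recovered for inputs of exactly 1 RPKM, so this ratio has no interval. Whether that input is a measured level cannot be told here. Without strand in the tables, reads from these ncRNAs and from Col1a1 mRNA cannot be told apart.

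Vim, Snai1, Col1a1, Col6a1 and Ctgf were the nearest genes to 10 of the 4286 ChIRP-seq peaks. Pdgfrb and Col1a2 had none. Of the genes with a curated RefSeq transcript, 12.1% are nearest to at least 1 peak. The score of a peak is the authors' own value from the peak caller MACS, used here only to rank peaks within this list. Scores of the 10 peaks ran from 31.0 to 44.0 with a median of 35.3, in a list whose lowest score is 30.01 and whose median is 34.3. A score of at least 40 was reached by 3 of the 10, 1 at Vim and 2 at Snai1, and by 24.8% of all peaks.

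Vim encodes vimentin, the intermediate filament protein of mesenchymal cells. Its peak, on chromosome 2 from 13496149 to 13497106 in mm9, had the highest score of the set, 44.0, above 83.8% of the list. The deposited annotation places it in the first intron and as CpG sequence, with a centre 689 bases behind the start. It begins 211 bases behind the start, so it lies just outside the promoter window printed above. No other peak and no ncRNA candidate lay within 100 kb of the Vim start.

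Snai1 had 3 peaks, all intergenic and all downstream of a gene that is 4.62 kb long. Their centres lay 14699, 32058 and 40456 bases behind the start, with scores of 40.1, 33.9 and 40.3. The first covers chromosome 2 from 167378132 to 167378721 and the third from 167403849 to 167404518. Snai1 is thus an entry in the mRNA list and in the peak list, but no peak lay within 10 kb of its start. The region is not empty around it, since a peak with a higher score of 47.1 belongs to Rnf114 at 52308 bases before the Snai1 start.

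Col1a1 also had 3 peaks, all upstream and intergenic. Their centres lay 22561, 21186 and 7337 bases before the start, with scores of 38.2, 33.1 and 34.3. The outermost pair is 1375 bases apart, and the outer of these is annotated to an MLT1K repeat of the LTR class. Chromosome 11, which carries Col1a1, held 5.14 peaks per Mb, against 0.993 on chromosome 2 with Snai1 and Vim and 0.877 on chromosome 10 with Col6a1 and Ctgf. The part of this density in the Col1a1 peaks was not tested. Col1a2 lies on chromosome 6, with 4.27 peaks per Mb, and had no peak within 100 kb.

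Col6a1, which encodes a chain of the beaded filament collagen VI, had a peak 13070 bases before its start with a score of 36.25, on an ORR1A0 repeat of the LTR class. Its other peak, with a score of 31.0, lay 76361 bases before the start in an intron of Pcbp3 and on a CA repeat. Ctgf had a peak with a score of 31.7 at 40652 bases behind its start, far from the ncRNA at its promoter. At a gene with such a distance the name says only which start is nearest.

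By class, 8 of the 10 peaks were intergenic, against 40.0% of all peaks, and only those at Vim and the innermost at Col1a1 lay within 10 kb of a start, against 42.6% of all peaks. None of the 10 was annotated to a promoter. At least 3 peaks were found at 6.67% of the genes in the list, and Snai1 and Col1a1 were among them.

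**Figure D3:**
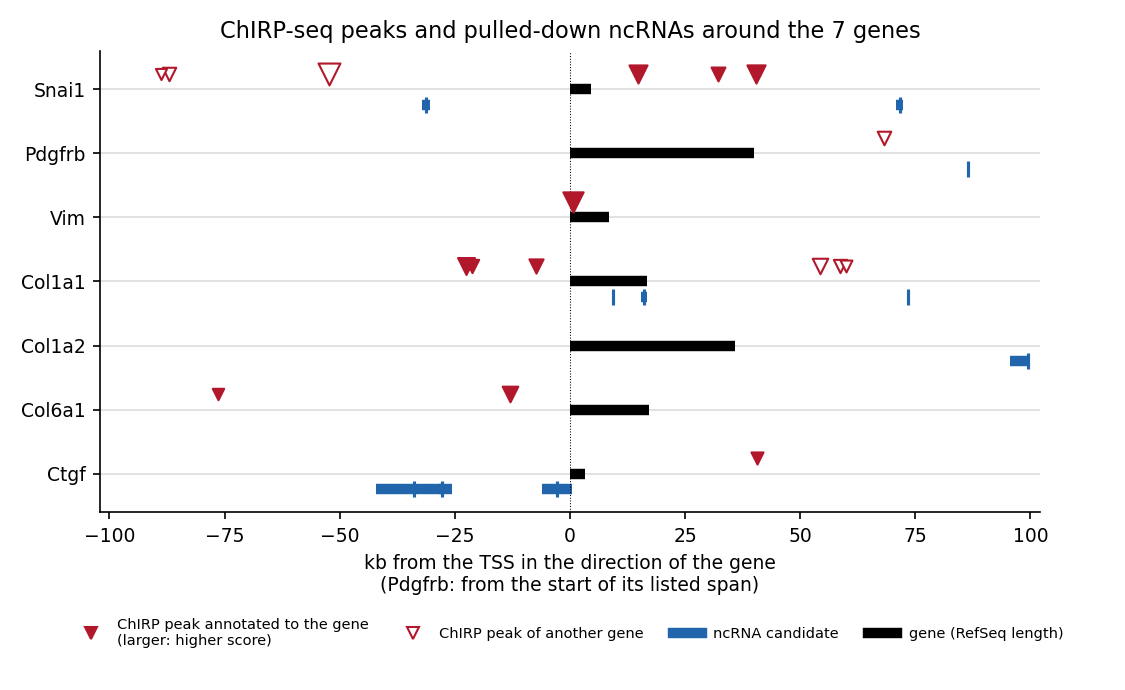
Position of ChIRP-seq peaks (triangles, larger with a higher score) and pulled-down ncRNA candidates (blue bars) within 100 kb of each of the 7 genes, on an axis in kb from the start in the direction of the gene. For Pdgfrb, whose strand was not determined, the axis runs from the start of its listed span. Peaks annotated to the gene itself (filled) lie downstream of Snai1 and Ctgf, upstream of Col1a1 and Col6a1 and at the start of Vim. Peaks annotated to other genes (open) also lie upstream of Snai1, downstream of Col1a1 and beyond the end of the listed Pdgfrb span. None of either kind lies within 100 kb of Col1a2.

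**Figure D4:**
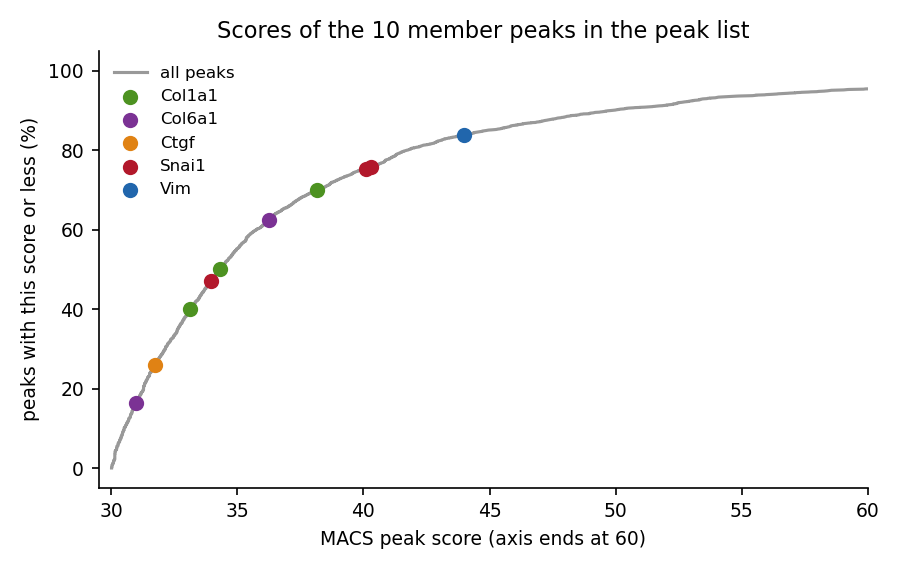
Share of all 4286 peaks with a given score or less (grey line, score axis ending at 60), with the 10 member peaks as points. The peaks spread over the list, from Col6a1 at 31.0 to Vim at 44.0.

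Snai1 and Ctgf were the members with entries in 2 lists, as had 2.25% of the genes with a curated RefSeq transcript. Likeness to them was measured as the distance of log2 ratio and log2 score, each the highest of a gene. Of 211 genes in both the mRNA and peak lists, Sectm1a was nearest to Snai1 (ratio 56.3, score 46.3, distance 0.20), followed by Ece2 (68.0, 39.7, 0.24) and Sfn (59.1, 34.25, 0.24). Of 281 genes in both the promoter ncRNA and peak lists, Gjb5 was nearest to Ctgf (ratio 5.10, score 31.3, distance 0.03), followed by Tmem106b (5.08, 33.0, 0.06) and Alg2 (5.28, 31.7, 0.07).

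A wider list of 95 mesenchymal and matrix genes, which contains the 7, places the members among their relatives. Of the 88 others, 11 had an entry in the mRNA list, 2 in the promoter ncRNA list and 13 in the peak list, beside the background shares of 5.74%, 6.16% and 12.1%. The wider list was written with earlier results known, so its counts carry no test.

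Among 9 EMT transcription factors, Snai1 was accompanied in the mRNA list by 4 others, beside a background share of 5.74%. The homeobox gene Prrx1 had 0.012 RPKM in the pull-down against 0.001 in the input, a deposited ratio of 12. Its counting interval ran from 2.47 to 829, with 1 or 2 input reads. Prrx2 had a ratio of 3.33 (counting interval 1.73 to 7.58). Twist2 had a ratio of 3.5 with an interval that includes 1 (0.835 to 36.0). Zeb2 had the firmest value, 0.298 RPKM in the pull-down against 0.117 in the input, a ratio of 2.55 (2.26 to 2.87) from at least 361 input reads, just inside the listing limit of 2.5. Within this group the lowest ratio thus goes with the most input reads, and the highest, that of Snai1, with 1. Snai2, Twist1, Zeb1 and Foxc2 had no entry in any list. Only Snai1 of this group had a peak, beside a background share of 12.1%.

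Of the 6 PDGF receptors and ligands, Pdgfrb and the ligand Pdgfc were listed as mRNAs, beside a background share of 5.74%. Pdgfc had 0.011 RPKM in the pull-down against 0.002 in the input, a ratio of 5.5 (2.32 to 17.7). The receptor Pdgfra had no entry. Of 8 cytoskeletal and contractile genes only Vim was listed, through its peak, beside a background share of 21.7% for any list. Acta2 and Tagln, smooth muscle markers of myofibroblasts, were not listed.

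Of 23 collagen genes, 5 had an mRNA entry and 4 a peak, beside background shares of 5.74% and 12.1%. None had both, while 211 of the 1509 genes in the mRNA list were also nearest to a peak. That absence of overlap was not tested. Besides Col1a2, the mRNA entries were the cartilage collagen Col2a1 (ratio 26, interval 3.03 to 740), Col11a1 (10, 5.71 to 20.3), Col6a3 (4, 0.758 to 336) and Col5a2 (3.33, 1.48 to 9.65). Col2a1 had 1 input read, and taken from reads its ratio was 18.2. Besides Col1a1 and Col6a1, peaks lay at Col4a1 and Col4a2, neighbouring genes of the basement membrane collagen. The highest-scoring Col4a1 peak (71.9) lay 139538 bases from the start, and that at Col4a2 had a score of 47.6. Both genes lie on chromosome 8, which held 5.15 peaks per Mb.

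In the CCN family of secreted matrix proteins, Cyr61 resembled Ctgf in its entries. Its promoter ncRNA had 0.613 RPKM in the pull-down against 0.142 in the input, a ratio of 4.32 (2.61 to 7.51 in pairs), next to 5.02 for Ctgf. Its peak, with a score of 53.3, lay 35239 bases before the start. Wisp3 had a peak with a score of 31.3 at 775 bases behind its start, and the other 3 genes of the family had no entry. Background shares are 6.16% for the promoter ncRNA list and 12.1% for the peak list.

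Among the remaining groups, the small proteoglycan genes Bgn and Lum had mRNA ratios of 22 (interval 3.24 to 785) and 16.5 (2.83 to 695), each from a single input read. Plod2, a lysyl hydroxylase of collagen, had promoter ncRNAs with ratios up to 18.2 from 3 input reads. Peaks were linked to Sparc (34.2) and Fbln2 (31.75), to the crosslinking and turnover genes Timp2 (68.3), Loxl2 (34.8), Mmp2 (33.4) and Loxl4 (33.2), and to the surface genes Itgb1 (35.1), the epithelial cadherin Cdh1 (31.75) and Cd44 (31.6). These peaks, each the highest-scoring of its gene, lay from 5518 bases (Timp2) to 99264 bases (Fbln2) away from the start. Mmp2, Itgb1 and Cdh1 lie on chromosome 8 (5.15 peaks per Mb) and Sparc and Timp2 on chromosome 11 (5.14). Fbln2 lies on chromosome 6 (4.27) and Loxl4 on chromosome 19 (5.54). Loxl2 lies on chromosome 14 (0.552) and Cd44 on chromosome 2 (0.993). The part of this density in these peaks was not tested.

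**Figure D5:**
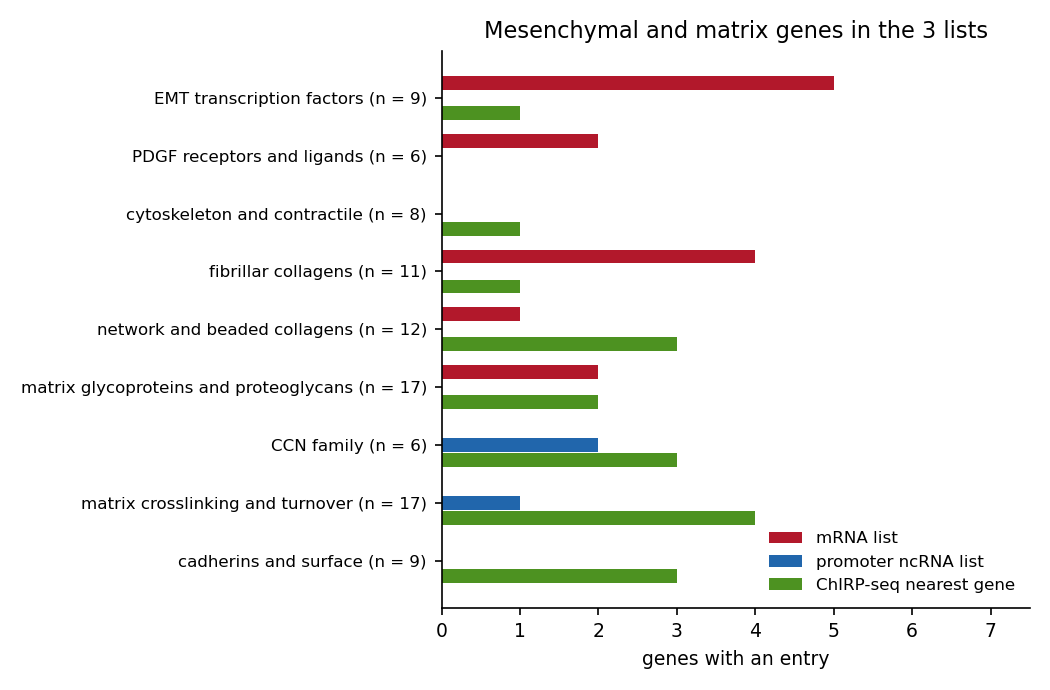
Number of genes with an entry in the mRNA list, the promoter ncRNA list and the peak list, for each group of the wider list, with the group size in brackets. EMT factors reach 5 in the mRNA list, and cadherins and surface genes reach 3 in the peak list. The background shares of these lists are 5.74% and 12.1%.

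The lists hold only selected entries, so the labelled cell type could not be checked by marker levels here. Of 8 epithelial markers 3 were nearest to a peak and 0 had an mRNA entry, and of 10 alveolar and airway markers 5 were nearest to a peak and 1 had an mRNA entry. Of 5 endothelial markers 2 were nearest to a peak and 2 others, the receptor genes Kdr and Tek, had an mRNA entry. Of 5 immune markers 0 had either and 1, Cd68, was in the promoter ncRNA list. Kdr, Tek and Cd68 are named after their entries were seen. Of 14 fibroblast and mesenchymal markers 5 were nearest to a peak and 4 had an mRNA entry, beside background shares of 12.1% and 5.74%. The 7 members are among those 14 and were picked because they were listed. They make up all 5 markers with a peak and, as Snai1, Pdgfrb and Col1a2, all mRNA entries but Lum.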

How the data were processed

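Pull-down and input RPKM were deposited by the authors, rounded to 3 decimals, with their ratio (fold), per the file headers. Lengths are spans with introns. The ChIRP-seq tables hold the authors' deposited MACS score per peak and its distance to the nearest start. Build mm9 is named in the submitters' processing notes for both assays, with MACS for ChIRP-seq and, for the pull-down, Trimmomatic, Picard 1.119 and bedtools 2.15. Both also list Bowtie2, HOMER, FastQC and SAMtools, and no role is given. Pull-down and input RNA were depleted of rRNA and pre-amplified, per the labels' protocols, so reads are not independent molecules.

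RPKM times length fell on whole multiples of 1 read. Leaving out inputs of exactly 1 RPKM, 100% of the values with enough decimals came within 0.15 reads of one. The implied totals for mRNAs were 42.0 M reads in the pull-down and 23.9 M in the input, and for ncRNAs 15.0 M in the pull-down and 9.66 M in the input. The estimator was tested on simulated data, which held more usable values than the deposited tables. Intervals are exact (Clopper-Pearson, 95%), cover counting error only, and compare 2 libraries, not conditions. ncRNA reads were counted as pairs because 79.6% of input numbers were even. Names were matched to RefSeq (GRCm38.p6), which found 1508 of 1509, 1618 of 1624 and 3179 of 3192. Starts in mm9 came from peak positions and distances, or from mRNA spans for Pdgfrb and Col1a2. The text names the 7 genes with all entries, genes of the wider list with an entry, and the 3 genes most like Snai1 and Ctgf. Members and lists were chosen with earlier results of these data known. Python 3.11.15, numpy 2.4.6, pandas 2.3.3, scipy 1.17.1 and matplotlib 3.10.9 were used.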

Additional observations from a re-analysis of the deposited data

How the results depend on the processing

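With 1 library per group no replicate could be left out. No paired analysis was possible because each group has 1 library. Rounding kept the ratios of Snai1, Pdgfrb, Col1a2 and the Ctgf ncRNA within their counting intervals. Those intervals start from the same rounded values, so this is no independent check. Current or older symbols changed no count. The planned choice among transcripts could not be tried, since each of these genes has 1 entry. A pseudocount of 0.1 RPKM brought the ratio of Snai1 to 5.69, of Pdgfrb to 1.47 and of Col1a2 to 1.17, and one of 0.01 RPKM brought Snai1 to 27.9, Pdgfrb to 5.27 and Col1a2 to 2.42, under the listing limit of 2.5, because both exceed the inputs. For the Ctgf ncRNA a pseudocount of 1 RPKM gave 1.73. With an input of at least 0.005 RPKM, 1 member (Snai1) stayed in the mRNA list. With a ratio of at least 10, 0 stayed in the promoter ncRNA list. With a score of at least 40, 2 (Snai1 and Vim) stayed in the peak list, and with peaks within 10 kb of the start, 2 (Vim and Col1a1). Within 100 kb of the 7 starts there were 17 peaks and 10 ncRNA candidates, against 9 and 6 within 50 kb and 2 and 2 within 10 kb. The 6-letter seed match was found in 1 member promoter, the 7-letter match in 0. Counting the Ctgf reads singly, an alternative chosen after the data were seen, gave an interval of 2.87 to 9.50. The depth of the ChIRP-seq libraries is unknown from the tables.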

Other observations

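Some further candidates lay within 100 kb of the members without being assigned to them. Near Snai1, NONMMUT041285, 30.4 to 32.1 kb before the start, had 4.555 RPKM in the pull-down against 1.26 RPKM in the input, a deposited ratio of 3.62 (interval 1.83 to 7.95 in pairs). Near Col1a2, the ncRNA assigned to the promoter of Casd1, a sialic acid acetyltransferase gene, had 2.584 RPKM in the pull-down against 0.191 RPKM in the input, a ratio of 13.5 (6.42 to 34.3), and begins 95.7 kb behind the Col1a2 start. Near Pdgfrb, NONMMUT032562 had 7.023 RPKM in the pull-down against 0.588 RPKM in the input, a ratio of 11.9 (3.08 to 102), 86.1 kb from the start of the listed span. Near Col1a1, a group of 3 peaks at Ppp1r9b, which encodes the actin-binding protein spinophilin, had scores of 36.1, 33.1 and 31.5, the first of them annotated to a promoter and 54391 bases behind the Col1a1 start.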
